A study of Bos taurus and other sequences with 9 samples.

Results

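The miRNAs described here are 10 mature miRNAs of the imprinted DLK1-DIO3 domain, namely miR-127-3p, miR-379-5p, miR-381-3p, miR-382-5p, miR-409-3p, miR-411-5p, miR-432-5p, miR-487b-3p, miR-493-3p and miR-495-3p. They were chosen by name, all 10 were present among the 425 miRNAs of the count table, and 46 further miRNAs of the same domain were in that table. Small ncRNA had been sequenced from extracellular vesicle (EV) preparations of 9 samples of 5 culture media, to ask how much serum RNA remains after EV depletion. Regular FBS medium, ultracentrifuged EV-depleted medium (UC-dFBS), ultrafiltrated EV-depleted medium (UF-dFBS) and commercial exosome-depleted medium (SBI-dFBS, System Biosciences) had 2 samples each, and the serum-free medium StemPRO had 1. All serum media were based on DMEM/F12 with antibiotics. Sample 1 of FBS, of UC-dFBS and of UF-dFBS came from a single lot of Sigma serum and sample 2 of each from a single lot of Gibco serum, whereas the samples of SBI-dFBS were separate commercial lots. Thus the SD within a medium holds the difference between sera or lots, and p-values measure only the spread between these samples. That spread was estimated over all media of a fit together and drawn towards a trend across miRNAs. Small p-values therefore rest on this shared estimate and not only on the 2 samples of each medium compared. No serum of grown animals was sequenced, so that levels in fetal serum could not be compared with levels in adult serum.

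The DLK1-DIO3 domain is an imprinted region, in which protein-coding genes such as DLK1, RTL1 and DIO3 are expressed from the paternal chromosome and long noncoding transcripts from the maternal one. Mammalian embryos, placenta and brain are known for high expression of the miRNAs that are cut from these maternal transcripts, which form one of the largest miRNA clusters of placental mammals. A hairpin of such a transcript gives a 5p and a 3p mature miRNA, of which usually a single arm is abundant, and serum carries mature miRNAs inside EVs as well as bound to proteins. In the bovine RefSeq annotation (ARS-UCD2.0) genes for all 10 members were found by name on chromosome 21 between DLK1 and DIO3, in the order MIR493, MIR127, MIR432, MIR379, MIR411A, MIR495, MIR381, MIR487B, MIR382 and MIR409A. From the first to the last of them 53 miRNA genes were annotated, and 33 snoRNA genes lay between MIR432 and MIR379. The members therefore fell into 2 sets, an upstream set of 3 around RTL1 (miR-493-3p, miR-127-3p and miR-432-5p) and 7 of the downstream miR-379/miR-410 cluster. The annotation also held MIR411B, MIR411C and MIR409B, and reads of such copies could not be told apart by name here, because the authors had counted reads against human mature miRNAs.

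The tables held 203755 and 124396 miRNA counts for FBS and 1438 for StemPRO. For the depleted media there were 86679 and 61315 (SBI-dFBS), 50776 and 26275 (UC-dFBS), and 4204 and 937 (UF-dFBS). Levels are given as spike-in normalized counts, that is, counts scaled by a factor that the authors had derived for every sample from external spike-in RNAs. They are comparable between samples as far as these factors hold. Levels of different miRNAs are not adjusted for length, which the tables did not hold, or for ligation efficiency. Fewer EVs, less miRNA per EV and less miRNA outside of EVs could not be told apart.

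In regular FBS all 10 members were found, with a summed spike-in normalized level of 520 in FBS-1 and 319 in FBS-2 (420 ± 142, SD, n = 2). The most abundant was miR-432-5p of the upstream set, whose hairpin lies in the transcript antisense to RTL1, at 238 (FBS-1) and 124 (FBS-2). This miRNA gave 45.7% and 39.0% of the members' counts and was the 19th and 20th most abundant of all miRNAs there. Likewise antisense to RTL1, the mRNA of which it can cleave, miR-127-3p reached 38.6 in FBS-1 and 41.9 in FBS-2. The level of miR-493-3p, the most upstream member, was only 6.81 in FBS-1 and 3.62 in FBS-2.

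In the downstream cluster, miR-379-5p, the member that opens this cluster, was found at 65.4 and 39.97 in FBS-1 and FBS-2, and miR-382-5p at 63.6 and 36.8. For miR-409-3p the levels were 41.9 and 31.5, and for miR-411-5p 35.1 and 26.4. These 4 miRNAs and miR-127-3p formed a group in which each overlapped with its neighbour in the order of means. The 4 had the same order in both samples. Only miR-127-3p changed place, from between miR-409-3p and miR-411-5p in FBS-1 to the top of the group in FBS-2. With 2 samples, the order within this group of 5 remains uncertain. Below them were miR-381-3p at 21.7 and 9.52, miR-487b-3p at 7.64 and 4.16, and miR-495-3p at 1.86 and 0.939. Samples of miR-432-5p, of the group of 5, of miR-381-3p, of miR-487b-3p with miR-493-3p, and of miR-495-3p did not overlap with the next level below. Means thus ranged from 1.40 ± 0.650 for miR-495-3p to 181 ± 80.2 for miR-432-5p (SD, n = 2) among miRNAs of the same domain.

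**Figure D1:**
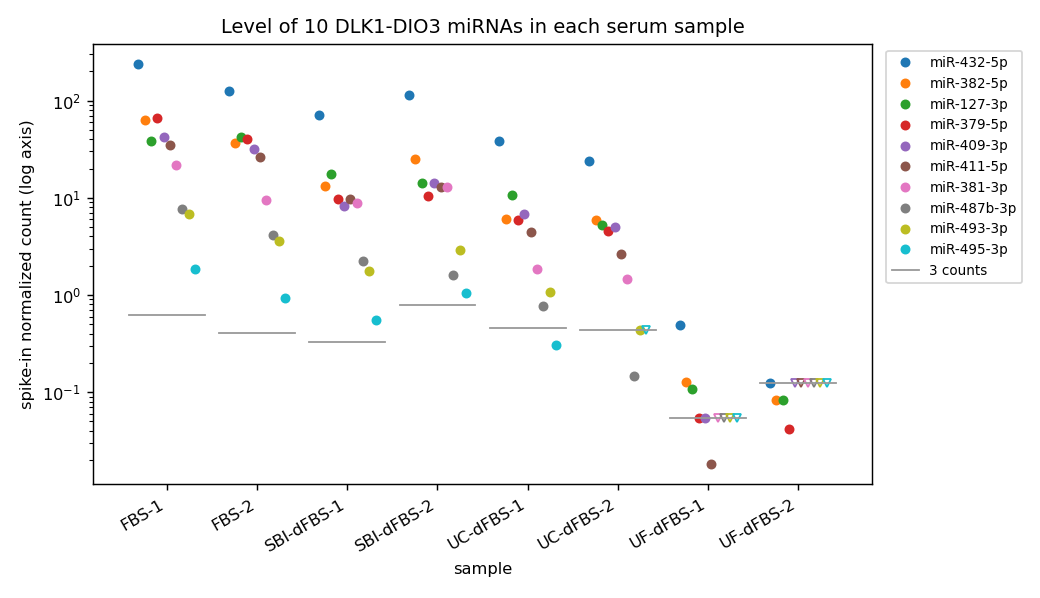
Spike-in normalized counts (y axis, log scale) of the 10 members in the 8 serum samples (x axis), with 1 filled point per member and sample. Grey lines mark the level of 3 counts in a sample, and open triangles on them are members without a count. The points of FBS lie highest (0.939 to 238), those of UF-dFBS all lie below 0.5, and miR-432-5p is the top point of every sample.

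Of the depleted media, the commercial SBI-dFBS was closest to FBS, and the serum from which it had been made was not sequenced. The members' summed level was 143 in SBI-dFBS-1 and 209 in SBI-dFBS-2 (176 ± 46.8, SD, n = 2), which was 58.1% ± 18.1 lower than in FBS, while all miRNAs together were 56.1% lower. Of the upstream set, miR-432-5p was found at 70.9 and 114 in the lots, both below the lower FBS sample. The level of miR-127-3p was 17.7 and 14.0, and that of miR-493-3p 1.77 and 2.91, likewise without overlap with FBS. Compared to FBS the log2 changes of these 3 were -0.97 (SE 0.63), -1.34 (SE 0.61) and -1.18 (SE 0.91), and none passed the test (edgeR quasi-likelihood F-test, Benjamini-Hochberg adjusted p = 0.186, 0.0581 and 0.262).

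In the downstream cluster, miR-379-5p showed the largest decrease, with levels of 9.73 and 10.3 against 65.4 and 39.97 in FBS. Its log2 change of -2.39 (SE 0.63) passed the test (edgeR, adjusted p = 0.00124). In SBI-dFBS miR-409-3p was found at 8.18 and 14.3 and fell by 1.72 on the log2 scale (SE 0.64; edgeR, adjusted p = 0.0204), and miR-382-5p at 13.2 and 25.2 and fell by 1.40 (SE 0.60; edgeR, adjusted p = 0.0452). These were the 3 members with a significant decrease. With levels of 9.62 and 13.0, miR-411-5p had a log2 change of -1.45 (SE 0.65) that narrowly missed the threshold (edgeR, adjusted p = 0.0560). For miR-487b-3p the levels were 2.21 and 1.59 and the log2 change -1.60 (SE 0.91; edgeR, adjusted p = 0.133). The levels of miR-381-3p, 8.85 and 13.0, overlapped with FBS, and its log2 change was -0.52 (SE 0.71; edgeR, adjusted p = 0.526). Also miR-495-3p overlapped, with 0.553 and 1.06 against 1.86 and 0.939 in FBS, and had too few counts to be tested.

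Thus 3 of the 9 tested members were significantly lower in SBI-dFBS than in FBS and none was higher, beside 44.2% of all 163 tested miRNAs that were lower and 1.23% that were higher. The median log2 change was -1.40 for the members and -1.70 for all tested miRNAs. Both samples of SBI-dFBS were below both FBS samples for 8 of the 9 tested members, compared with 74.8% of all tested miRNAs, and for 8 of all 10 members. The lots differed, and 8 of the 10 members were higher in SBI-dFBS-2 than in SBI-dFBS-1, the exceptions being miR-127-3p and miR-487b-3p. All miRNAs together were also higher in SBI-dFBS-2, with a summed level of 16233 against 9584 in SBI-dFBS-1. How many of all tested miRNAs were higher in SBI-dFBS-2 was not counted, so the difference is not particular to the members. The calls rested on single samples, with 0 members called without SBI-dFBS-1, 1 without FBS-1 and 5 when only miRNAs with 10 counts in 4 samples were kept, but 1 with no filter. Scaled to the average miRNA (TMM) instead of the spike-ins, none of the members was called, 8 of 9 had positive log2 changes, and the median of all tested miRNAs moved to 0.21.

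**Figure D2:**
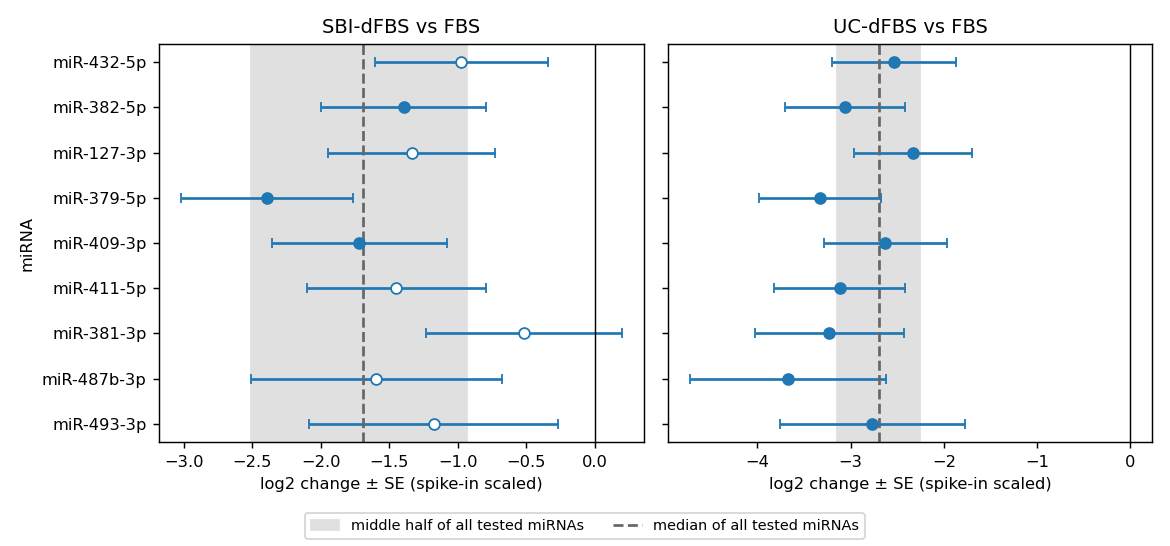
Log2 change against FBS ± SE (x axis, spike-in scaled, edgeR) of the 9 tested members (y axis) in SBI-dFBS and UC-dFBS. Filled points had an adjusted p below 0.05, the grey band is the interquartile range of all 163 tested miRNAs and the dashed line their median. In SBI-dFBS 3 points are filled and in UC-dFBS all 9, and the members lie around the median of all miRNAs in both.

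In ultracentrifuged medium the members were lower still. Their summed level was 76.3 in UC-dFBS-1 and 49.4 in UC-dFBS-2 (62.9 ± 19.0, SD, n = 2), or 15.0% of that in FBS, and within the same serum 14.7% (Sigma) and 15.5% (Gibco) remained. All miRNAs together retained 19.8%. Of the upstream set, miR-432-5p was found at 38.2 and 24.0, miR-127-3p at 10.7 and 5.28, and miR-493-3p at 1.07 and 0.440. In the downstream cluster miR-409-3p was at 6.88 and 4.98, miR-382-5p at 6.12 and 5.86, miR-379-5p at 5.97 and 4.54 and miR-411-5p at 4.44 and 2.64. The lower part of the order was miR-381-3p with 1.84 and 1.47, miR-487b-3p with 0.765 and 0.147, and miR-495-3p with 0.306 and no count in UC-dFBS-2.

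All 9 tested members were significantly lower in UC-dFBS than in FBS, beside 90.8% of all tested miRNAs (edgeR, adjusted p from 1.11e-05 for miR-379-5p to 0.00798 for miR-493-3p). Log2 changes ran from -2.33 (SE 0.63) for miR-127-3p to -3.67 (SE 1.05) for miR-487b-3p, and their median was -3.06, against -2.70 for all tested miRNAs. For miR-432-5p the log2 change was -2.54 (SE 0.67), or 5.81-fold lower, and for miR-379-5p -3.32 (SE 0.65), or 10.01-fold lower. Both samples of UC-dFBS were below both FBS samples for 9 of 9 tested members (98.2% of all tested miRNAs). They were below both SBI-dFBS samples for 9 of 9 as well (50.9% of all tested miRNAs), a difference that was not put to the edgeR test. With the untested miR-495-3p it was 10 of 10 members in both cases. Of miR-127-3p, 27.7% was left in Sigma serum and 12.6% in Gibco serum. For miR-487b-3p these shares were 10.01% and 3.52%, on 5 and 1 counts in UC-dFBS, and for miR-495-3p 16.5% and 0%, on 2 and 0 counts. Without UC-dFBS-2, 6 members were called, and relative to the average miRNA (TMM) 0 were called and 2 had positive log2 changes, while the median of all tested miRNAs moved to -0.08.

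In ultrafiltrated medium the members were left with few counts. Their summed level was 0.851 in UF-dFBS-1 and 0.333 in UF-dFBS-2 (0.592 ± 0.366, SD, n = 2), 709-fold lower than in FBS, and 0.164% (Sigma) and 0.104% (Gibco) of the level in the same serum was left. None of the 10 members exceeded 1 spike-in normalized count in either sample, a level that 2.35% of all 425 miRNAs exceeded in at least 1 sample of UF-dFBS. In FBS as well as SBI-dFBS all 10 members exceeded this level in at least 1 sample, as did 50.8% and 35.8% of all miRNAs, although miR-495-3p did so in only 1 sample of each medium. For UC-dFBS it was 8 members and 28.2% of all miRNAs. By the mean of both samples, the number was 10 for FBS, 9 for SBI-dFBS and 7 for UC-dFBS. The members' sums rest on 47 counts in UF-dFBS-1 and 8 in UF-dFBS-2.

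Most of these counts belonged to miR-432-5p, with 27 counts in UF-dFBS-1 and 3 in UF-dFBS-2, or levels of 0.489 and 0.125. By mean levels, the measure used for the sum, this miRNA was 590-fold lower than in FBS. Over pooled counts, the measure used for the ratios that follow, the ratio of FBS to UF-dFBS was 447 (exact 95% interval 312 to 664, counting error only). For miR-127-3p, with 6 and 2 counts, the ratio was 402 (202 to 936), and for miR-382-5p, with 7 and 2 counts, 417 (218 to 916). These intervals overlapped, so that a difference in depletion between the 3 was not detectable at this depth. The ratio was 991 (385 to 3648) for miR-379-5p with 3 and 1 counts, and 941 (320 to 4580) for miR-409-3p with 3 and 0 counts. A single count of miR-411-5p in UF-dFBS-1 gave a ratio of 2365 with an interval from 422 to 93661.

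The other 4 members had no count in either UF-dFBS sample. Against a floor of 3 counts per library, miR-381-3p was at least 174-fold lower than in FBS and miR-487b-3p at least 65.8-fold lower. For miR-493-3p the bound was at least 58.2-fold lower and for miR-495-3p at least 15.6-fold lower, bounds set by their lower levels in FBS. Had UF-dFBS-1 kept the composition of FBS-1, 2.17 counts of miR-381-3p and 0.681 of miR-493-3p would have been found in it, which counts of 0 cannot be told from. On the same basis 23.8 counts of miR-432-5p compare with the 27 counted in UF-dFBS-1 and 6.98 with the 3 counted in UF-dFBS-2. For miR-379-5p 6.54 compare with 3 counted in UF-dFBS-1 and 2.24 with 1 counted in UF-dFBS-2.

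All 9 tested members were significantly lower in UF-dFBS than in FBS, beside 98.2% of all tested miRNAs (edgeR, adjusted p from 9.62e-24 for miR-379-5p to 1.35e-10 for miR-493-3p). With miRNAs at 0 set to their bound, the median log2 change was -8.90 for the tested members and -8.05 for all tested miRNAs. Compared to UC-dFBS, 9 of 9 were significantly lower as well, beside 93.9% of all tested miRNAs, with medians of -6.38 and -5.48 on the same basis. In these medians, miRNAs with any count kept their ratio. Against FBS, miR-411-5p thus entered at 3398-fold on 1 count and miR-381-3p at its bound of 174-fold. Both UF-dFBS samples were below both FBS samples for 9 of 9 tested members (98.8% of all tested miRNAs) and below both UC-dFBS samples for 9 of 9 (89.6%). With the untested miR-495-3p these were 10 of 10 and 9 of 10, as this miRNA had no count in UC-dFBS-2. Relative to the average miRNA (TMM) no member was called in either comparison and 1 of 9 had a positive log2 change in each, miR-127-3p against FBS and miR-382-5p against UC-dFBS, while the medians of all tested miRNAs moved to -0.59 and -0.52.

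In StemPRO, which holds no serum, 1 count each of miR-411-5p and miR-381-3p was found and the remaining 8 members had none. The level of both was 0.00926, below the 0.0278 that 3 counts correspond to in this sample. The members thus made up 2 of 1438 miRNA counts, or 0.139% (Wilson 95% interval 0.038 to 0.506). This interval lay below that of each serum sample but UF-dFBS-2, with whose interval it overlapped. StemPRO had no replicate and was not tested.

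The members' share of all miRNA counts changed far less than their level. The Sigma sample FBS-1 had a share of 1.24% (Wilson 95% interval 1.19 to 1.29) and the Gibco sample FBS-2 of 1.91% (1.84 to 1.99). Each of the 10 members had the higher share in FBS-2, but how many of all tested miRNAs did so was not counted. On the spike-in scale the median ratio of FBS-2 to FBS-1 was 0.561 for the members and 0.569 for all tested miRNAs. The members were thus close to the other miRNAs in this ratio. In SBI-dFBS the share was 1.49% and 1.29%, within the range of the FBS samples. In UC-dFBS it was 0.983% in Sigma serum, below FBS-1 beyond counting error, and 1.28% in Gibco serum, below FBS-2. The share was 1.12% in UF-dFBS-1 (0.842 to 1.48) and 0.854% in UF-dFBS-2 (0.433 to 1.68), so that the former could not be told from its own serum at this depth while the latter was lower.

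These shares depend on miR-122-5p, the main miRNA of liver, which gave 46.1% and 28.9% of miRNA counts in FBS but 68.0% and 73.4% in SBI-dFBS. Its share was 59.6% and 54.5% for UC-dFBS and 60.4% and 41.5% for UF-dFBS. Of the counts left without miR-122-5p, the members made up 2.30% and 2.69% in FBS and 4.65% (4.41 to 4.91) and 4.84% (4.52 to 5.18) in SBI-dFBS. The samples of SBI-dFBS were thus above those of FBS, with intervals that did not overlap, whereas the intervals of 2.43% and 2.82% in UC-dFBS overlapped with those of the same sera in FBS. In UF-dFBS this share was 2.83% (2.13 to 3.74) and 1.46% (0.742 to 2.85). On the spike-in scale the members kept 41.9% of their FBS level in SBI-dFBS, and all miRNAs without miR-122-5p kept 21.4%. Such sums are weighted to the most abundant miRNAs. Counting each miRNA once, the median log2 change was -1.40 for the tested members and -1.70 for all tested miRNAs.

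**Figure D3:**
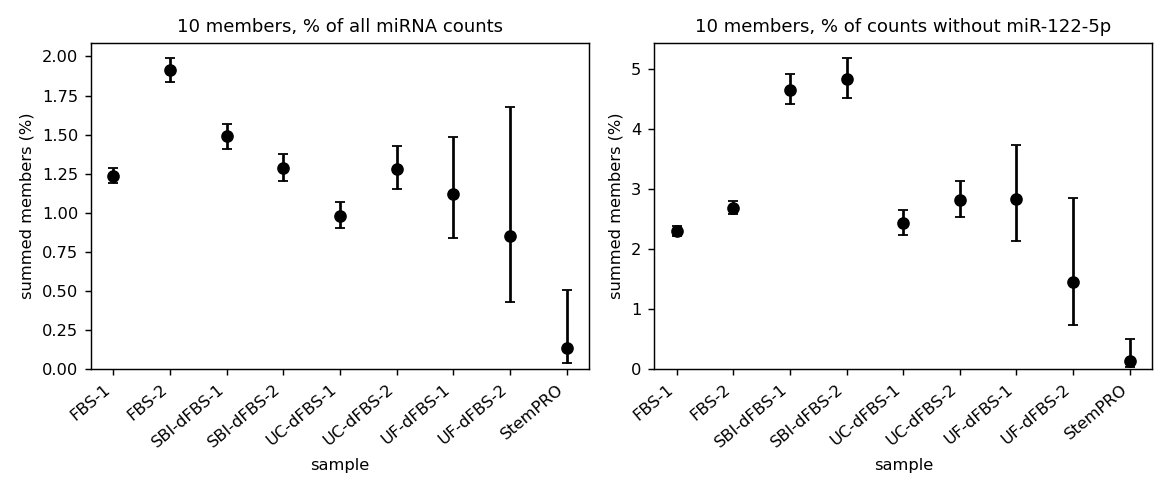
Counts of the 10 members as a percentage of all miRNA counts (left) and of the counts without miR-122-5p (right) in the 9 samples (x axis), with Wilson 95% intervals that cover counting error only. On the left all serum samples lie between 0.854% and 1.91%, and on the right both SBI-dFBS samples lie above 4% and every other sample below 3%.

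The composition within the members differed between FBS and the SBI-dFBS samples as well. The upstream set gave 54.4% (Wilson 95% interval 52.5 to 56.4) and 53.2% (51.2 to 55.2) of the members' counts in FBS. In SBI-dFBS it gave 63.3% (60.7 to 65.9) and 62.5% (59.1 to 65.8), and in UC-dFBS 65.5% (61.3 to 69.6) and 60.2% (54.9 to 65.3). Both SBI-dFBS samples and UC-dFBS-1 lay above FBS beyond counting error, and the interval of UC-dFBS-2 overlapped with both of FBS. In UF-dFBS the set gave 70.2% (56.0 to 81.3) and 62.5% (30.6 to 86.3), and these intervals overlapped with those of the same sera in FBS. This set is dominated by miR-432-5p, which gave 49.7% and 54.4% of the members' counts in SBI-dFBS and 50.1% and 48.7% in UC-dFBS. Without miR-432-5p, the other members kept 35% of their summed FBS level after commercial depletion, 13.3% after ultracentrifugation and 0.119% after ultrafiltration.

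Most members had lower levels in Gibco serum than in Sigma serum on the spike-in scale. Of the 10 members 9 were higher in FBS-1 than in FBS-2, as were 134 of 163 tested miRNAs, and the exception was miR-127-3p. The median ratio of FBS-2 to FBS-1 was 0.561 for the members and 0.569 for all tested miRNAs. Over FBS, UC-dFBS and UF-dFBS with the medium as a term, 1 of 7 tested members was significantly lower in Gibco serum, beside 35.2% of 105 tested miRNAs that were lower and 1.9% that were higher. This was miR-432-5p with a log2 change of -0.90 (SE 0.28; edgeR, adjusted p = 0.00798). All 7 log2 changes were negative, from -0.34 for miR-127-3p to -0.93 for miR-381-3p, with a median of -0.53 against -0.62 for all tested miRNAs. The other 3 members, miR-487b-3p, miR-493-3p and miR-495-3p, had too few counts for this test. With the medium as a term, a medium left with 1 sample adds nothing to the comparison of suppliers. Leaving out either sample of a medium was therefore in effect the same check. The call was lost without a sample of FBS or of UC-dFBS, and 3 members were called without a sample of UF-dFBS. Relative to the average miRNA (TMM) 5 of the 7 log2 changes were positive and none was called. Each supplier is represented by 1 lot, so that supplier and lot cannot be told apart.

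For 7 of the members the opposite arm of the hairpin was also in the table. Over the 8 serum samples the member's arm made up 99.97% of the counts of both arms for miR-432, 99.5% for miR-411, 98.0% for miR-379, 96.4% for miR-127 and 94.9% for miR-409. In contrast, miR-493-3p and miR-493-5p had 97 and 98 counts, so that the member's arm made up 49.7% (exact 95% interval 42.5 to 57.0). The arms of miR-493 were near parity in FBS (48.5% and 52.9%) and in SBI-dFBS (47.1% and 47.8%) alike. For miR-382 the 5p arm made up 83.0% (80.6 to 85.2), and here the samples of FBS and SBI-dFBS differed. Arm shares also differed beyond counting error between the untreated sera, as miR-127-3p made up 92.6% (88.0 to 95.8) in FBS-1 and 98.7% (96.8 to 99.7) in FBS-2. A difference between media could thus not be told from one between sera.

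The 5p arm of miR-382 gave 89.0% (exact 95% interval 85.2 to 92.1) and 87.5% (83.4 to 91.0) of the counts of both arms in FBS, but 70.4% (62.9 to 77.2) and 73.6% (65.2 to 81.0) in SBI-dFBS. Both samples of SBI-dFBS were below both FBS samples, and the intervals did not overlap. The level of miR-382-3p was 7.84 and 5.23 in FBS and 5.53 and 9.0 in SBI-dFBS, which overlap, and its log2 change was 0.14 (SE 0.80; edgeR, adjusted p = 0.874), beside -1.40 for miR-382-5p. In UC-dFBS the share of the 5p arm was 74.1% (60.4 to 85.0) and 90.9% (78.3 to 97.5). Within Sigma serum the interval of UC-dFBS-1 lay just below that of FBS-1, and within Gibco serum the intervals overlapped. This arm ratio was taken up after its values had been seen, and the difference between the changes of the arms was not tested in a model across replicates.

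**Figure D4:**
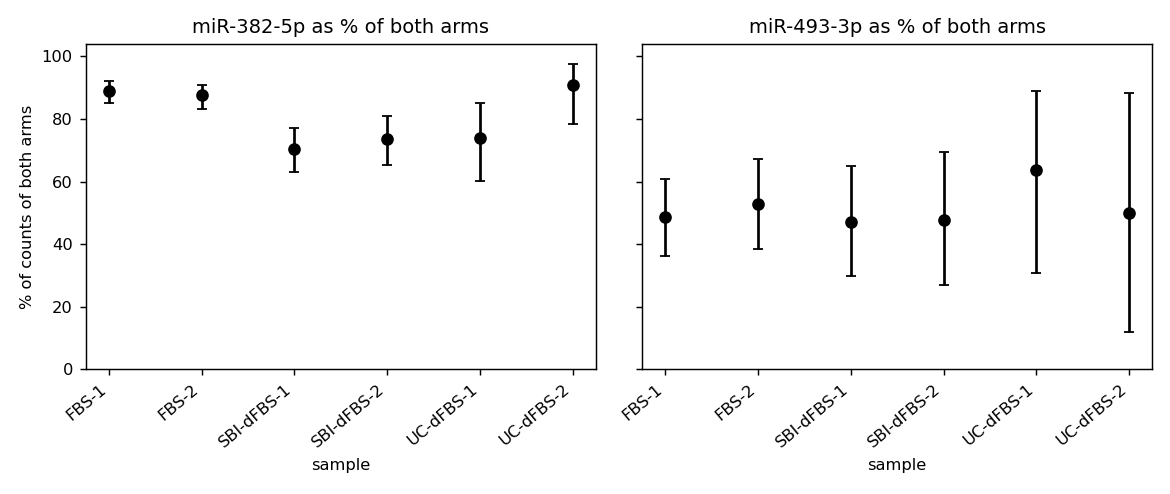
Counts of miR-382-5p (left) and miR-493-3p (right) as a percentage of the counts of both arms (y axis) in 6 serum samples (x axis), with exact 95% intervals that cover counting error only. For miR-382 the FBS samples lie at 89.0% and 87.5% and the SBI-dFBS samples at 70.4% and 73.6%, and for miR-493 all samples lie between 47.1% and 63.6%.

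Of the 46 other miRNAs of the domain, 11 had enough counts for the test, and 22 had 3 counts or fewer in every sample. The most abundant in FBS were miR-369-3p (34.1 ± 16.3, SD, n = 2), miR-494-3p (28.1 ± 3.73), miR-299-3p (12.9 ± 9.75), miR-412-5p (8.0 ± 1.97) and miR-382-3p (6.54 ± 1.85). They thus lay below miR-432-5p, and the samples of miR-369-3p overlapped with those of miR-409-3p. In SBI-dFBS none of the 11 passed the test against FBS (edgeR, and 0 also at an unadjusted p below 0.05), beside 44.2% of all tested miRNAs that were lower. Their log2 changes ran from -1.996 to 0.28 with a median of -0.74, above the median of -1.40 of the members. Their summed level was 66.1% of that in FBS, and for miR-369-3p it was 11.6 in SBI-dFBS-1 and 42.1 in SBI-dFBS-2. In UC-dFBS 9 of the 11 were significantly lower than in FBS, beside 90.8% of all tested miRNAs. The exceptions were miR-412-5p with a log2 change of -1.29 (SE 0.81; edgeR, adjusted p = 0.118) and miR-541-5p with -2.14 (SE 1.09; edgeR, adjusted p = 0.0556). In UF-dFBS all 11 were significantly lower than in FBS and than in UC-dFBS, beside 98.2% and 93.9% of all tested miRNAs. Of the 46, 34 had no count in UF-dFBS, and how many of all miRNAs had none was not counted.

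The profile of the members over the 8 serum samples was compared with that of 154 other tested miRNAs by Pearson's r, as a description without test. On the log2 scale of spike-in normalized counts, the most similar were miR-16-5p and miR-186-5p (r = 0.997 for both), miR-425-5p (0.996), let-7d-5p (0.995) and miR-30e-5p (0.995). The median over all 154 miRNAs was 0.965, since all values share the spike-in factors and the decrease from FBS to UF-dFBS. On the log2 scale of shares of miRNA counts, the order was led by miR-15b-5p (0.905), miR-17-5p (0.899), miR-191-5p (0.893), miR-16-5p (0.854) and miR-186-5p (0.843), with a median of 0.34 over all. No other miRNA of the domain was among the 20 most similar on this scale, on which their r ran from -0.30 to 0.58. The r of single members with the mean of the other members ran from -0.05 to 0.71 on this scale, a range that overlaps with it, and values of miRNAs of few counts in UF-dFBS carry a large counting error.

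Markers of red cells and liver were given by sample for comparison. The 4 red cell miRNAs (miR-451a, miR-144-3p, miR-144-5p and miR-486-5p) had summed levels from 245 to 286 in FBS and 131 to 176 in SBI-dFBS. After ultracentrifugation their sum was 15.5 to 19.3, and after ultrafiltration 0.634 to 0.916. Of these miR-144-3p was at 0 in both UF-dFBS samples. The 3 liver miRNAs (miR-122-5p, miR-192-5p and miR-885-5p) summed to 4832 to 19451 in FBS, 6537 to 11955 in SBI-dFBS, 2107 to 4636 after ultracentrifugation and 16.2 to 46.2 after ultrafiltration, of which miR-885-5p had at most 4 counts in any sample. Thus the red cell sum in SBI-dFBS lay below that in FBS without overlap, as did the members' sum, whereas the liver sum in SBI-dFBS lay within the range of FBS. Each red cell miRNA alone overlapped with FBS, however. For miR-451a the levels were 32.7 and 45.5 in SBI-dFBS against 71.8 and 32.6 in FBS, and for miR-486-5p 132 and 60.1 against 126 and 237. Their part in the levels of the members was not tested.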

How the data were processed

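Small RNA was isolated from the EV fraction of the media and sequenced with unique molecular indices (UMIs). The deposited counts are reads per mature miRNA that the authors obtained with cutadapt 1.11 and Bowtie2 2.2.2. Reads were matched perfectly to miRBase, and those left over were aligned to miRNA loci of human GRCh37 with up to 1 mismatch. Reads with a full UMI had been collapsed to unique pairs of insert and UMI, whereas reads with a partial UMI had been added to them. The second deposited table is a spike-in normalized signal, for which the authors scaled counts to the slope of a regression of the spike-in reads on their known concentration. The ratio of both tables was checked to be constant in each sample. Bovine reads were thus named by human miRNAs. The members and all lists were chosen with earlier results of these data known. All members, the opposite arms, the 5 most abundant other miRNAs of the domain and the 5 most similar miRNAs by each scale were described singly.

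Counts were tested in R 4.3.3 with the quasi-likelihood F-test of edgeR 4.0.16 (two-sided, Benjamini-Hochberg over all tested miRNAs, threshold 0.05), with the spike-in factors as library sizes. The medium fit held 8 serum samples and 163 miRNAs that reached 10 counts in 2 or more of them, and the supplier fit 6 samples, with the medium as a term, and 105 miRNAs that reached 10 counts in 3 or more. The SE is the log2 change divided by the square root of F. The scripts were tested on simulated data. Alternatives were TMM, DESeq2 1.42.0, other filters and sets of samples, leaving out each sample, and the serum as replicate block. Pseudocounts were 0.1 for spike-in normalized values and 0.5 for counts. Intervals are at 95% and cover counting error only.

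UC-dFBS and UF-dFBS share their sera with FBS, according to the methods and the supplier labels. Differences between samples 1 and 2 correlated across 105 miRNAs with r = 0.692 for FBS with UC-dFBS, 0.248 for FBS with UF-dFBS and 0.0856 for UC-dFBS with UF-dFBS. With SBI-dFBS, which has other sera, r was -0.343, -0.414 and 0.107. Samples of a medium differed by more than sampling noise. Total counts over miRNAs and other small ncRNAs ranged from 6679 to 6867736 per sample. Mature sequences, the normalized table of other small ncRNAs and the spike-in reads were not used here.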

Additional observations from a re-analysis of the deposited data

Results flagged for a closer look

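The difference between the sera of the 2 suppliers pointed in opposite directions for miR-127-3p. In regular FBS the level in Gibco serum was above that in Sigma serum by 0.12 on the log2 scale, and in UC-dFBS it was lower, with a log2 difference of -1.02. Each value compares 1 sample with 1 sample, and the difference between the media was not tested. Of the 7 members with more than 3 counts in all 4 of these samples, this was the only member with such opposite signs.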

How the results depend on the processing

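Spike-in normalization decided most calls, and the factors differed up to 14.6-fold between serum samples. The error of the factors was not assessed here, although the authors drew the SD of the spike-in fit for summed RNA classes. The number of miRNAs called against FBS was 74 for SBI-dFBS, 148 for UC-dFBS and 160 for UF-dFBS, with 153 for UF-dFBS against UC-dFBS and 39 between suppliers. With TMM these became 10, 0, 22, 15 and 13, and with DESeq2 and its own size factors 10, 2, 23, 16 and 4. The number of members called, 3, 9, 9, 9 and 1, was 0 in each under both, where DESeq2 gave no adjusted p for 2 members in both UF-dFBS comparisons. At an unadjusted p below 0.05, TMM gave 1, 0, 2, 0 and 0 members. With DESeq2 and spike-in factors, 14 miRNAs and 0 members were called between suppliers. With no filter, 277 miRNAs were called in UF-dFBS and 24 between suppliers, and 1 member in SBI-dFBS and 0 between suppliers. With at least 10 counts in 4 samples, 49 miRNAs and 5 members were called in SBI-dFBS. With no medium term, 0 miRNAs and 0 members were called between suppliers. Leaving out 1 sample gave 12 to 75 miRNAs and 0 to 3 members in SBI-dFBS, with the fewest without SBI-dFBS-1 and with 33 without FBS-1 and 43 without SBI-dFBS-2. It gave 56 to 142 miRNAs and 6 to 9 members in UC-dFBS, with the fewest without UC-dFBS-2 and 89 without FBS-1, 158 to 160 miRNAs and 9 members in UF-dFBS, and 124 to 150 miRNAs and 8 to 9 members for UF-dFBS against UC-dFBS. Between suppliers it gave 0 to 59 miRNAs and 0 to 3 members, with 0 without either FBS sample, 2 without either UC-dFBS sample and 59 without UF-dFBS-2. In the comparisons of media, a medium left with 1 sample was assumed to vary like the others. In the comparison of suppliers such a medium dropped out, so that leaving out either of its samples was in effect the same check.

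As a share of miRNA counts, the members' sum was lower than in FBS by 11.9% for SBI-dFBS, 28.1% for UC-dFBS and 37.4% for UF-dFBS, instead of 58.1%, 85.0% and 99.86%. Without miR-122-5p in the total, an alternative chosen after the data had been seen, it was lower by 14.0% in UF-dFBS, and the values of -90.3% in SBI-dFBS and -5.38% in UC-dFBS stand for higher shares. At a threshold of 0.1, 3 members were found in UF-dFBS instead of 0. With 47 and 8 member counts, UF-dFBS limits all statements on single members there.

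Of 483 log2 changes of members under alternatives 34 changed sign, 31 of them under TMM or DESeq2 with its own size factors, which express changes relative to the average miRNA. In SBI-dFBS they became 0.86 for miR-432-5p, 0.40 for miR-382-5p, 0.39 for miR-127-3p, 0.028 for miR-409-3p, 0.32 for miR-411-5p, 1.36 for miR-381-3p, 0.31 for miR-487b-3p and 0.65 for miR-493-3p under TMM. Under DESeq2 they were 0.75 for miR-432-5p, 0.31 for miR-382-5p, 0.27 for miR-127-3p, 0.21 for miR-411-5p, 1.23 for miR-381-3p, 0.12 for miR-487b-3p and 0.54 for miR-493-3p, and without 1 sample each miR-381-3p ranged from -0.9985 to 0.19, the latter without FBS-1. In UC-dFBS they were 0.12 for miR-432-5p and 0.11 for miR-127-3p under TMM and 0.0056 for miR-127-3p under DESeq2, and in UF-dFBS 0.0056 for miR-127-3p under TMM. Against UC-dFBS, miR-382-5p in UF-dFBS was at 0.35 under TMM and 0.46 under DESeq2. Between suppliers, TMM gave 0.21 for miR-382-5p, 0.32 for miR-127-3p, 0.17 for miR-379-5p, 0.24 for miR-409-3p and 0.21 for miR-411-5p, and DESeq2 gave 0.087, 0.12, 0.028, 0.050 and 0.016 for the same. Without 1 sample each miR-127-3p ranged from -0.89 (without FBS-2) to 0.038 between suppliers, and it was at 0.038 without UC-dFBS-1 and 0.036 without UC-dFBS-2.

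With the serum as replicate block, 158 miRNAs were called in UC-dFBS, 160 in UF-dFBS and 153 for UF-dFBS against UC-dFBS, all 9 tested members among each, so that the pairing changed no call of a member. The same 6 samples with no serum term gave 138, 160 and 152.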
